A study of Homo sapiens with 24 samples.

Results

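RNA captured near the P-body helicase DDX6 in arsenite-stressed cells was compared with the RNA that went into the capture, in 2 labelled captures against 2 inputs. A further 2 captures made without the probe show what binds the beads without label. These 6 libraries are all those of the DDX6 line under arsenite, out of 24 in the series, and they were taken by their labels and not by any measured value. The series also holds the same line without arsenite. It further holds arsenite-stressed HEK293T lines in which a stress granule protein, TIA1 or G3BP2, is the tagged protein.

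All 6 libraries came from a stable HEK293T line (human embryonic kidney origin) in which DDX6 is fused to miniSOG, a small protein that makes singlet oxygen in blue light. Sodium arsenite at 0.5 mM was given to all of them, no-probe controls included, starting 40 min ahead of the probe and lasting 1 hr. Propargylamine (10 mM, 5 min) was the probe, left out in the no-probe controls, and blue light at 24 mW/cm2 followed for 15 min. In the TIA1 and G3BP2 lines, also HEK293T, miniSOG is fused to the named protein. Libraries of those lines were all given arsenite at the same dose and times, with the same light. Inputs are labelled RNA set aside before the streptavidin step, and labelled captures are what was recovered from it. The endogenous DDX6 gene is not stated to be removed, so the fusion adds to it, and the labels do not say whether the line is a single clone or whether replicates are separate cultures. The p-values therefore measure the spread between 2 samples a group, pooled over the 12 groups of the series, which may be technical.

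Processing bodies are cytoplasmic condensates of mRNAs that are not being translated, together with the proteins that repress, deadenylate, decap and degrade them. DDX6 is a DEAD-box helicase that links the CCR4-NOT deadenylase and the decapping enzyme to translational repressors, and it is needed for P-bodies to form in human cells. Arsenite stalls translation initiation, enlarges P-bodies and brings out stress granules, which hold stalled initiation complexes and often touch P-bodies. In the labelling reaction singlet oxygen oxidises mainly guanine bases within a short range of the fusion protein, propargylamine joins the oxidised base, and a biotin is then attached by click chemistry.

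Total counts were 4542015 and 3344960 in the labelled captures, 3270373 and 3825961 in the inputs and 2006220 and 3472565 in the no-probe captures, with r between replicates of 0.976, 0.963 and 0.938 on log2 CPM across genes. The no-probe captures were thus the least alike pair. Counts of DDX6 itself, including those of the fusion gene where its sequence is shared, stood at 1124 and 1100 CPM in the inputs, against 176 and 181 CPM in the inputs of the TIA1 line. Of 9 genes used as HEK293T markers, 8 had counts in the inputs, VIM and NEFM the most among them, and the kidney-development factor LHX1 was at 0 there. Of 19 markers of other cell types, 13 were at 0 in both inputs, CD3E of T cells, ALB of hepatocytes and INS of islets among them; the summed counts of all 19 were 73 and 69 in the inputs, 72 and 67 in the no-probe captures and 89 and 39 in the labelled captures.

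The labelled captures held far less mitochondrial RNA than the inputs. The mitochondrial genome took 29.7% and 29.6% of counts in the inputs, 21.4% and 28.0% in the no-probe captures, and 3.62% and 3.13% in the labelled captures. Nuclear protein-coding genes went from 49.0% and 50.4% of counts in the inputs to 83.3% and 85.5% in the labelled captures, with 57.3% and 45.0% in the no-probe captures. Long noncoding genes took 15.9% and 15.6% of counts in the inputs and 11.8% and 10.2% in the labelled captures. The 10 most counted genes of a library held 44.6% ± 0.315 of the input counts (SD, n = 2) and 15.4% ± 1.11 of the labelled capture counts. These shares sum to a whole, so a lower share of one class raises the others, and they are given without a test.

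**Figure D1:**
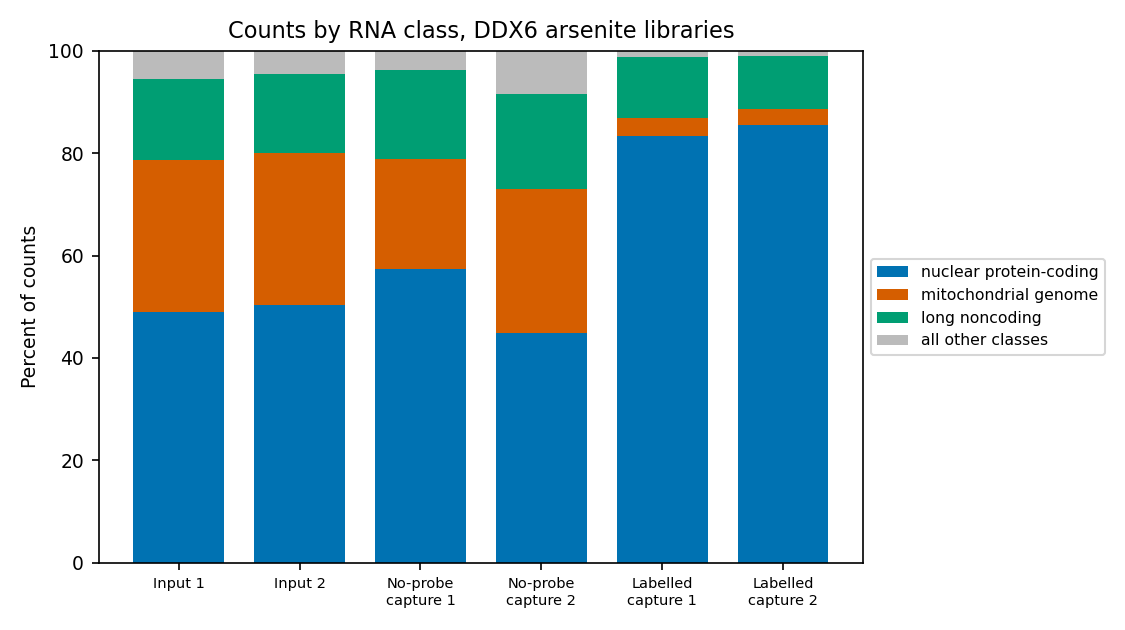
Stacked bars show the percent of counts by RNA class in each of the 6 libraries (1 bar a library, replicates 1 and 2 side by side). The mitochondrial share lies between 21.4% and 29.7% in the inputs and no-probe captures and is 3.62% and 3.13% in the labelled captures.

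Across 14360 tested genes, 2935 (20.4%) were higher in the labelled captures than in the inputs and 2485 (17.3%) were lower (edgeR's quasi-likelihood test, Benjamini-Hochberg adjusted p under 0.05, as throughout). The counts were 839 and 1481 where a change past 1 on the log2 scale was also asked for. Fitted on the 6 libraries alone, without the spread of the other groups, 1342 of 12637 genes were higher and 1358 lower. The balance depends on scaling: with total counts in place of TMM factors the median of all genes moved from -0.02 to 0.51 and the calls to 5891 higher and 809 lower, so that 87.9% of called genes were higher against 54.2%. All changes below are relative to the typical gene, by TMM. Without replicate 1 of the inputs 1937 genes rose and 1407 fell, and without replicate 2 of the labelled captures 1618 were lower. No gene called in one direction was called in the other in any of the alternatives run.

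Labelled against no-probe captures gave 3234 genes higher (22.5%) and 2896 lower (20.2%). The no-probe captures themselves did not differ from the inputs in any gene (0% of genes called in either direction by edgeR, with 930 genes at an unadjusted p under 0.05, and 0 called and 666 unadjusted by DESeq2). The 5th to 95th percentiles of the log2 change ran from -0.63 to 0.76 for no-probe capture over input and from -2.03 to 1.09 for labelled capture over input. With replicate 2 of the no-probe captures left out, however, 24 genes exceeded the inputs and 114 lay under them, and with replicate 1 left out these were 17 and 1.

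By class, nuclear protein-coding genes made up most of the genes tested (12326 of 14360), of the rises (2885 of 2935) and of the falls (1823 of 2485). In these bulk libraries more labelled copies and more label per copy cannot be told apart. Of 12326 nuclear protein-coding genes tested, 2885 were higher and 1823 lower, with a median of 0.07. Long noncoding genes numbered 13 higher and 313 lower of 1055, with a median of -0.99. Pseudogenes numbered 36 higher and 144 lower of 665, where reads may belong to the parent gene.

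The genes named first are the nuclear protein-coding genes with the largest changes that were also called in the same direction against the no-probe captures, with both labelled captures beyond both inputs and at least 20 CPM in the higher group. The 12 with the largest rise changed by 1.70 to 1.93 on the log2 scale. The no-probe capture over input of the same genes ran from -0.09 to 0.46. The rule favours such low no-probe values, as it asks for a call above the no-probe captures. TTC33, a tetratricopeptide-repeat gene, stood at 11.5 and 10.8 CPM in the inputs, 20.1 and 11 in the no-probe captures and 42.7 and 42.6 in the labelled captures. It rose 3.82-fold (1.93 ± 0.25 on the log2 scale, estimate and SE, adjusted p = 8.2e-07), and 1 no-probe library lay well above the inputs. FZD6, a Wnt receptor, rose from 11.8 and 13.1 to 44.9 and 50.4 CPM with 14.7 and 14.3 CPM in the no-probe captures (1.92 ± 0.25, adjusted p = 7.69e-07).

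B3GNT2, which starts poly-lactosamine chains, rose from 9.24 and 13.5 CPM in the inputs to 39.8 and 42.8 in the labelled captures (1.85 ± 0.28, adjusted p = 6.85e-06), and DCK, the deoxycytidine kinase of nucleotide salvage, from 15.2 and 22 to 71.7 and 62.2 (1.84 ± 0.22, adjusted p = 1.78e-07). RRM2B, the p53-induced subunit of ribonucleotide reductase, rose from 37.3 and 35.4 to 124 and 124 CPM (1.77 ± 0.22, adjusted p = 2.86e-07). None of these 3 genes had a no-probe library within the range of the labelled captures, which the rule that named them favours. ERLEC1, a lectin of ER-associated degradation, rose by 1.79 ± 0.22, the mitochondrial ATP-Mg/phosphate carrier SLC25A24 by 1.78 ± 0.24, the sialyltransferase ST6GALNAC3 by 1.74 ± 0.29, the ubiquitin ligase scaffold CUL4A by 1.74 ± 0.19, the arachidonate-activating enzyme ACSL4 by 1.73 ± 0.20 and the arrestin-domain gene ARRDC4 by 1.70 ± 0.22. Of the 12, TTC33, CUL4A, ERLEC1, FZD6, SLC25A24, ST6GALNAC3 and DDX6 overlap a gene or pseudogene on the other strand, ACSL4 one on each strand and DCK the gene MOB1B, and the counting is not stated to use strand, so reads of such partners cannot be told apart.

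DDX6 mRNA was itself among the 12, at 3539 and 3683 CPM in the labelled captures against 1124 and 1100 in the inputs and 1284 and 934 in the no-probe captures (1.70 ± 0.19, adjusted p = 6.8e-08). The fusion gene contributes to these counts. G3BP2, a stress granule nucleator that is not tagged in this line, rose from 157 and 215 to 408 and 533 CPM (1.34 ± 0.18, adjusted p = 1.15e-06). TIA1, also untagged here, stood at 55.4 and 64.0 CPM in the inputs, 82.5 and 48.9 in the no-probe captures and 81.6 and 99.0 in the labelled captures, so that a no-probe library reached the labelled range (0.59 ± 0.19, adjusted p = 0.0131), a call that was lost without replicate 2 of the labelled captures (adjusted p = 0.0889) or replicate 1 of the inputs (adjusted p = 0.121).

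**Figure D2:**
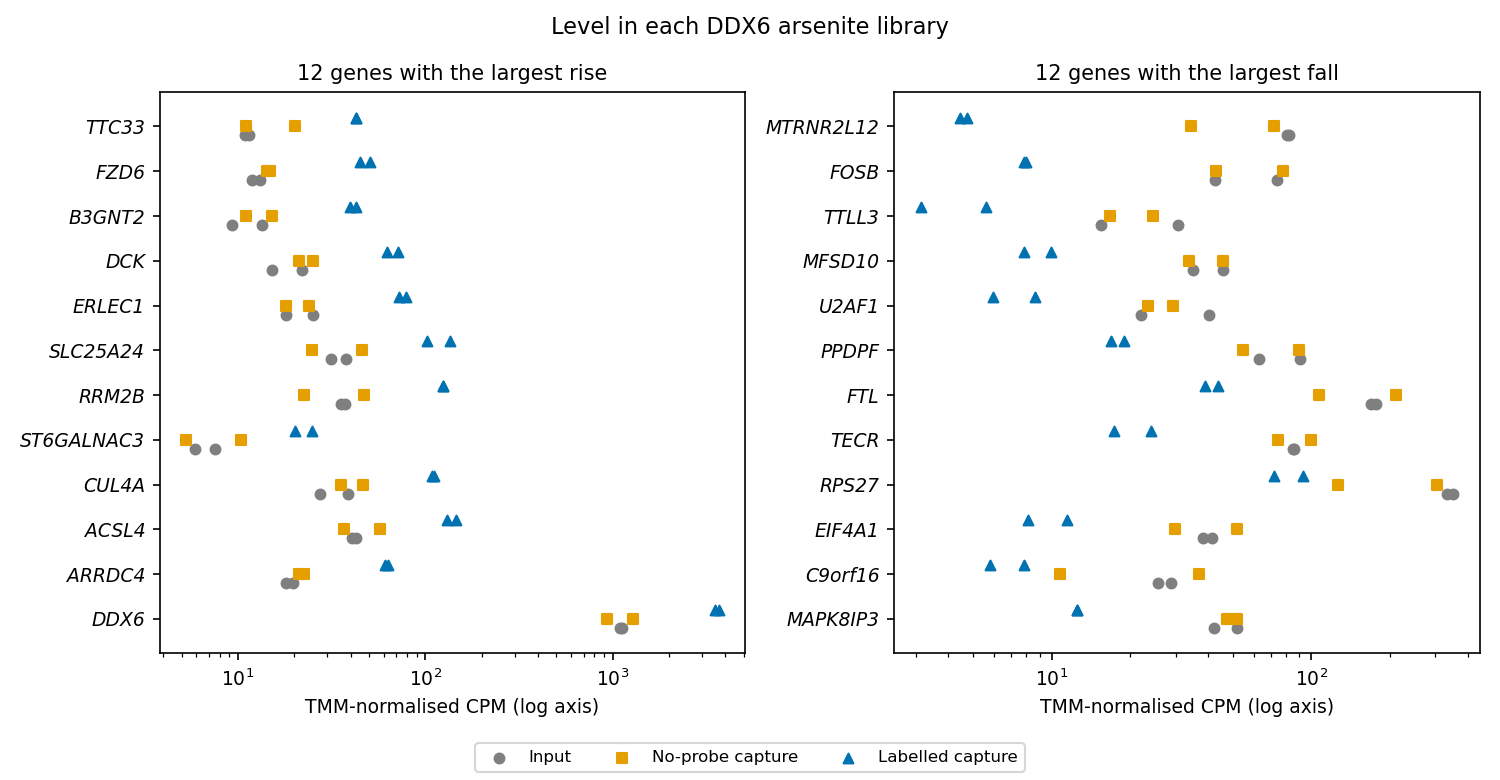
Points give the TMM-normalised CPM (log axis) of each library for the 12 protein-coding genes with the largest rise (left) and the largest fall (right), with inputs as grey circles, no-probe captures as orange squares and labelled captures as blue triangles. The genes were chosen to have both labelled captures beyond both inputs, and TTC33 stands at 42.7 and 42.6 CPM in the labelled captures against 11.5 and 10.8 in the inputs.

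Among long noncoding RNAs, 5 met the same conditions upward. EBLN3P stood at 36.6 and 42.3 CPM in the inputs and 79.6 and 82.6 in the labelled captures (1.03 ± 0.16, adjusted p = 9.93e-06), and FGD5-AS1 at 67.6 and 69.6 against 121 and 122 CPM (0.83 ± 0.15, adjusted p = 5.05e-05). NORAD, which carries many Pumilio sites, stood at 133 and 124 CPM in the inputs, 123 and 97.0 in the no-probe captures and 289 and 182 in the labelled captures (0.88 ± 0.20, adjusted p = 0.001). Its labelled captures lay far apart, and without replicate 1 of them the call was lost (0.55, adjusted p = 0.0552). AC004656.1 rose by 0.81 ± 0.27 (adjusted p = 0.0167), also lost without replicate 1 of the labelled captures (adjusted p = 0.158) and without either input (adjusted p = 0.0504 and 0.076).

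The 12 largest falls ran from -4.14 to -1.90, in transcripts of 625 to 5661 bases and 40.5% to 68.2% GC, against 2433 to 6861 bases and 34.7% to 43.4% GC for the 12 largest rises. FOSB, an immediate early transcription factor of the AP-1 family, stood at 73.5 and 42.7 CPM in the inputs, 78.1 and 42.8 in the no-probe captures and 7.96 and 7.84 in the labelled captures. It fell by 2.87 ± 0.31 on the log2 scale (adjusted p = 4.37e-08), and its inputs differed more from each other than its captures did. The tubulin-modifying ligase gene TTLL3 fell by 2.32 ± 0.34 (adjusted p = 5.23e-06), from 30.7 and 15.4 to 5.61 and 3.14 CPM, the transporter MFSD10 by 2.16 ± 0.28 (adjusted p = 8.5e-07), from 45.8 and 35.1 to 9.95 and 7.84 CPM, and the scaffold MAPK8IP3 by 1.90 ± 0.21 (adjusted p = 4.99e-08), from 51.7 and 42.0 to 12.5 and 12.5 CPM.

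FTL, the light chain of ferritin and an mRNA held back by iron regulatory proteins, stood at 170 and 177 CPM in the inputs, 107 and 211 in the no-probe captures and 38.9 and 43.9 in the labelled captures (-2.07 ± 0.22, adjusted p = 1.93e-08). PPDPF (-2.08 ± 0.22), the fatty acid elongation enzyme TECR (-2.06 ± 0.20), the small ribosomal subunit gene RPS27 (-2.06 ± 0.24) and C9orf16 (-2.02 ± 0.32) fell by similar amounts. In RPS27 and C9orf16 replicate 1 of the no-probe captures lay well below the inputs too, at 126 against 351 and 331 CPM and at 10.8 against 28.8 and 25.6. Of the other falls, MTRNR2L12 (-4.14 ± 0.30) is a nuclear copy of the mitochondrial 16S rRNA, U2AF1 (-2.13 ± 0.39) has a near-identical copy in the annotation and EIF4A1 (-2.04 ± 0.25) holds small nucleolar RNAs in its introns, so their counts are uncertain. FOSB, TECR and MAPK8IP3 each overlap a gene on the other strand, and TTLL3 a readthrough gene.

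The coding sequences of the leading genes show how base composition differed between the ends of the comparison. The 3 genes with the largest rise and the 3 with the largest fall are shown, leaving out FZD6 and the mitochondrial copy, each by the 120 bases of its longest annotated coding sequence (GENCODE release 29, GRCh38) whose GC content is nearest that of the whole. Capitals mark G and C. TTC33 lies at chr5:40512333-40755975 on the minus strand, B3GNT2 at chr2:62196113-62224731 and DCK at chr4:70992538-71030914, both on the plus strand. FOSB lies at chr19:45467995-45475179 and TTLL3 at chr3:9808086-9855138 on the plus strand, and MFSD10 at chr4:2930561-2934859 on the minus strand. All stretches are exonic and coding.
TTC33: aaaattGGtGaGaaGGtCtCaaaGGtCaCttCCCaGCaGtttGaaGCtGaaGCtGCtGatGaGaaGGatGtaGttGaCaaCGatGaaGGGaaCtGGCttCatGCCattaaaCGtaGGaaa
B3GNT2: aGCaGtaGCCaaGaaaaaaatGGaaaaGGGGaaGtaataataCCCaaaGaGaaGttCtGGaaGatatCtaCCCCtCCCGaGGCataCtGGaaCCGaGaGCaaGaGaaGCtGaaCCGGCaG
DCK: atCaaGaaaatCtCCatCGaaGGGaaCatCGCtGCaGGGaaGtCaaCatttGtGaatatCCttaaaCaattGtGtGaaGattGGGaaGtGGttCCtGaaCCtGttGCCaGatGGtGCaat
FOSB: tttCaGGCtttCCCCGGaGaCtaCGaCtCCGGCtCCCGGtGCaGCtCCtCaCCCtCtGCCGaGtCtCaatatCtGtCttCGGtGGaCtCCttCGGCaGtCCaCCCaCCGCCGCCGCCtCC
TTLL3: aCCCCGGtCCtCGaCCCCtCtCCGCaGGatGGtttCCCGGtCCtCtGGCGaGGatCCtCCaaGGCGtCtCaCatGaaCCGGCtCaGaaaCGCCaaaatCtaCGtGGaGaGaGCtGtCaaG
MFSD10: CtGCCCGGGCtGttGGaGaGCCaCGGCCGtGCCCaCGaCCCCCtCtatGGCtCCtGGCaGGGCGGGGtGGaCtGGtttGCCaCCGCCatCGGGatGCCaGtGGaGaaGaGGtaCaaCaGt

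G and C made up 53, 56 and 51 of the 120 bases of TTC33, B3GNT2 and DCK, and 77, 72 and 80 of those of FOSB, TTLL3 and MFSD10. The stretches of the falling genes were thus richer in capitals, though not always in G: the FOSB stretch holds 26 G and 51 C, the TTC33 stretch 34 G and 19 C and the MFSD10 stretch 43 G and 37 C. At the third position of codons G or C stood in 42.5% of codons in the TTC33 stretch and in 87.5% in that of MFSD10.

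The same order held across all nuclear protein-coding genes. The 10% of genes with the lowest GC content (median 36.9%) had a median log2 change of 0.66, with 55.5% of genes higher and 2.60% lower. The 10% with the highest (median 64.2%) had a median of -0.61, with 1.22% higher and 36.4% lower, and the medians of the 8 groups between them followed in order. The no-probe captures ran the other way and less steeply, from -0.12 in the GC-poorest 10% to 0.17 in the GC-richest. Spearman's rank correlation between GC content and the change, across 12326 genes of these libraries, was -0.596 for labelled capture over input, -0.657 for labelled over no-probe capture and 0.299 for no-probe capture over input. Genes share libraries and are not replicates, so these are descriptions without a p.

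The relation differed between the regions of the mRNA. Over 11954 to 12309 genes that have the region annotated, the rank correlation was -0.558 with the GC content of the coding sequence, -0.544 with that of the third position of its codons, -0.547 with that of the 3′ UTR and -0.076 with that of the 5′ UTR. For the G content of the transcript alone, the base that the label reaches, it was -0.504. Whether labelling, capture or library preparation sets this relation was not tested.

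Length went with the change much less. The rank correlation was 0.141 with transcript length, 0.259 with 3′ UTR length and 0.020 with coding length. The shortest 10% of genes (median 1339 bases) had a median change of -0.30 and the longest (median 9857 bases) 0.07, with a plateau between 0.16 and 0.23 in the 5 groups with medians from 3566 to 6847 bases. GC content separated genes at each length when they were split into sets of equal size by length and by GC content. Among short genes 39.8% of GC-poor and 2.12% of GC-rich ones were higher, and 4.45% and 28.6% lower. Among genes of middle length 56.9% and 2.90% were higher, and 1.91% and 30.4% lower. Among long genes 48.2% and 1.57% were higher, and 3.32% and 35.8% lower.

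**Figure D3:**
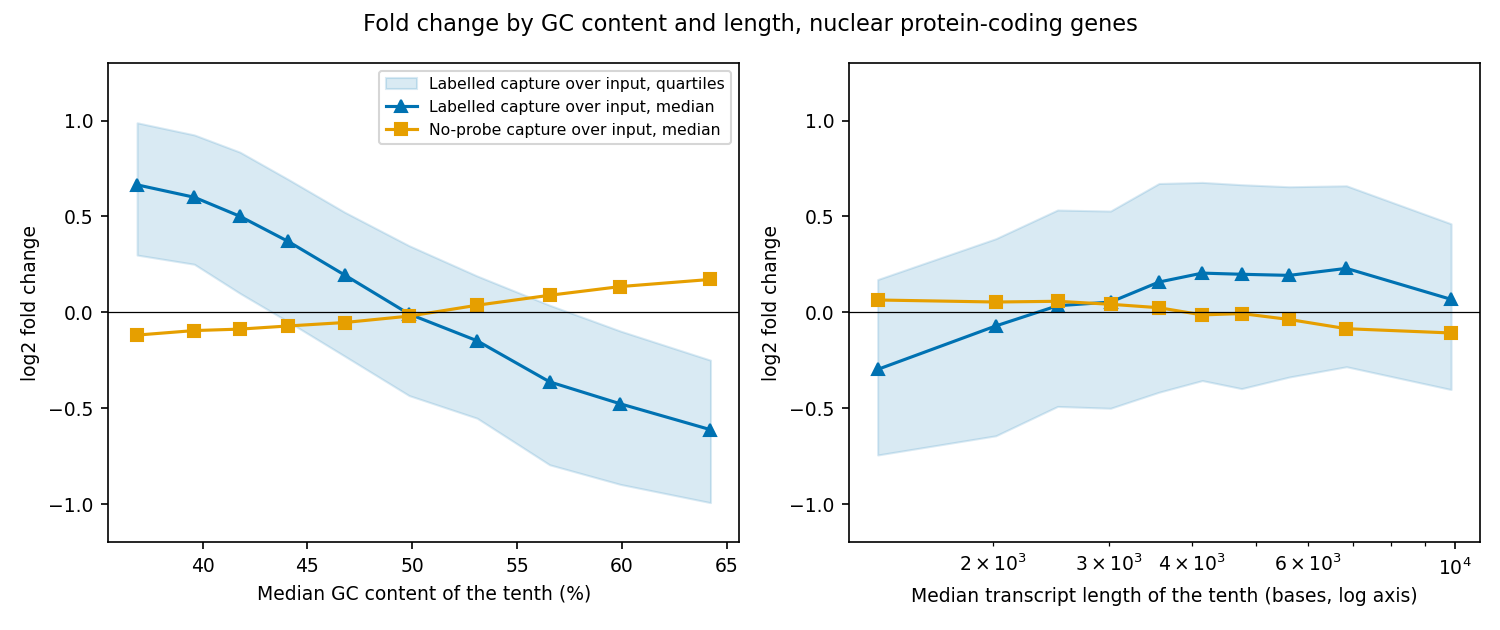
Median log2 fold change of nuclear protein-coding genes in 10 groups of equal size by GC content (left) and by transcript length (right, log axis), for labelled capture over input (blue, with quartiles shaded) and no-probe capture over input (orange). The blue line runs from 0.66 in the GC-poorest group to -0.61 in the GC-richest, while the orange line runs from -0.12 to 0.17.

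Pumilio proteins bind the 3′ UTRs of mRNAs that DDX6 and CCR4-NOT act on, so their motif was searched on the sense strand of 3′ UTRs of at least 50 bases as TGTANATA. It was present in 28.2% of 11867 such 3′ UTRs, in 43.1% of those of higher genes, 25.6% of those not called and 14.9% of those of lower genes. Higher genes also had longer and GC-poorer 3′ UTRs (medians 1712 bases and 35.3%) than lower genes (605 bases and 53.3%). Among the genes with GC-poor 3′ UTRs, the motif occurred 0.374 times per kb in higher genes, 0.367 in those not called and 0.360 in lower ones. Where these UTRs were also long, 63.9% of higher, 67.3% of uncalled and 63.6% of lower genes held it. In long GC-rich 3′ UTRs the shares were 53.1% of higher genes (17 of 32), 28.2% of uncalled and 27.0% of lower ones, and over all GC-rich 3′ UTRs the motif occurred 0.179, 0.131 and 0.119 times per kb. In short GC-poor 3′ UTRs 20.3% of higher genes held it, against 10.8% of uncalled and 12.1% of lower genes (11 of 91). The AU-rich nonamer TTATTTATT was found in 8.51% of all 3′ UTRs, in 10.1% of those of higher genes and in 5.34% of those of lower genes. Among GC-poor 3′ UTRs these were 10.8% and 5.77%, with 11.8% of uncalled genes. Per kb of all 3′ UTRs the nonamer occurred 0.059 times in higher genes, 0.069 in those not called and 0.057 in lower ones. In long GC-poor 3′ UTRs 17.3% of higher, 24.6% of uncalled and 15.2% of lower genes (5 of 33) held it. A match is a string of letters and not a shown binding site.

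Genes of the P-body itself did not move as a set. Counts of each list here and below are read against 20.4% of all tested genes higher and 17.3% lower. Of 24 core and decapping genes 23 were tested, 6 were higher (26.1%, against 20.4% of all genes) and 3 lower (13.0%, against 17.3%), with a median of 0.08. Besides DDX6, the decapping enzyme DCP2 rose by 1.09 and the decapping cofactor PNRC2 by 1.24 (adjusted p = 3.76e-05 and 2.25e-06), both chosen after their values were seen. The DDX6 partner LSM14A stood at only 2.59 and 3.94 CPM in the inputs and 9.59 and 10.2 in the labelled captures (1.57 ± 0.43, adjusted p = 0.00439), a call lost without replicate 1 of the inputs (adjusted p = 0.0639). PATL1, which bridges DDX6 and the LSM ring, fell by 1.01 ± 0.19 (adjusted p = 0.000109), from 54.3 and 56.5 to 23.5 and 32.1 CPM. With each of the 4 libraries left out in turn, 3 of the 6 rises and 1 of the 3 falls were called every time. In both directions the remainder, XRN1, LSM4, LSM6 and LSM7, had changes of at most 0.62 in size.

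Of 19 CCR4-NOT and PAN deadenylase genes, 9 were higher (47.4%, against 20.4% of all genes) and 1 lower (5.26%, against 17.3%), with a median of 0.45 against -0.02 for all genes, and 0.18 once the trend with GC content was removed. The catalytic subunit gene CNOT8 stood at 34.7 and 33.8 CPM in the inputs, 40.3 and 31.0 in the no-probe captures and 89.8 and 90.4 in the labelled captures (1.39 ± 0.17, adjusted p = 2.29e-07). BTG3, a CCR4-NOT recruiter, rose by 1.05 ± 0.19. The ubiquitin ligase CNOT4 went from 40.7 and 44.0 to 25.2 and 28.7 CPM (-0.66 ± 0.19, adjusted p = 0.00595). It was not called against the no-probe captures (adjusted p = 0.103), nor over input without replicate 1 of the labelled captures (adjusted p = 0.093) or replicate 2 of the inputs (adjusted p = 0.0703). In all, 4 of the 9 rises were called with each library left out.

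Translational repressors that work with DDX6 were called at near the shares of all genes (20.4% higher and 17.3% lower). Of 24 tested, 5 were higher (20.8%) and 5 lower (20.8%), with a median of 0.11 that became -0.19 without the GC trend. With each library left out 1 rise and 2 falls were kept. The Pumilio gene PUM2 rose from 80.6 and 104 to 211 and 202 CPM (1.16 ± 0.18, adjusted p = 8.09e-06), with 68.3 and 66.8 CPM in the no-probe captures. GIGYF1 fell by 0.95 and SAMD4B by 0.88 (adjusted p = 0.00015 and 6.63e-05). CAPRIN1, a G3BP partner, rose by 0.69 ± 0.17, though not without replicate 1 of the inputs (adjusted p = 0.0638). MicroRNA pathway genes numbered 2 higher and 5 lower of 15, with a median of -0.37 by TMM and 0.17 by total counts, and no one of these 7 calls was kept with each library left out. The shares of the microRNA list were 13.3% higher and 33.3% lower. Stress granule protein genes were mixed, at 10 higher (33.3%) and 8 lower (26.7%) of 30 with a median of -0.02 (0.52 by total counts). LARP4 rose by 0.97 and YBX1 fell by 0.92, and 5 of the 10 rises and 2 of the 8 falls were kept with each library left out.

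Of the 8 transcripts listed as known in stress granules or P-bodies, 3 were higher (37.5%) and 0 lower, with a median of 0.25 against -0.02 for all genes. They were TXNIP, an arrestin that blocks glucose uptake, at 21.8 and 19 CPM in the inputs and 42.9 and 41.0 in the labelled captures (1.04 ± 0.27, adjusted p = 0.00265), the transferrin receptor TFRC (0.91 ± 0.22) and NORAD. The call of TFRC was lost without replicate 1 of the inputs (adjusted p = 0.0825).

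Genes of cell division were higher in the largest share among the lists of mRNAs. Of 58 mitosis and kinetochore genes tested, 40 (69%) were higher and 1 lower, with a median of 0.68 that became 0.29 once the GC trend was removed. TOP2A, the topoisomerase that untangles sister chromatids, stood at 347 and 373 CPM in the inputs, 400 and 258 in the no-probe captures and 978 and 1023 in the labelled captures (1.48 ± 0.19, adjusted p = 8.01e-07). The proliferation marker MKI67 was the exception, falling from 344 and 290 to 205 and 160 CPM (-0.79 ± 0.18, adjusted p = 0.000972), but it stood at 184 and 272 CPM in the no-probe captures and was not called against them (adjusted p = 0.16). With each library left out in turn, 26 of the 40 rises were called every time.

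DNA replication and repair followed with 31 higher (56.4%) and 2 lower (3.64%) of 55 and a median of 0.48, or 0.36 without the GC trend. NBN, of the break-sensing MRN complex, rose from 53.6 and 77.8 to 167 and 243 CPM (1.64 ± 0.21, adjusted p = 5.21e-07), and the thymine DNA glycosylase TDG from 49.9 and 75.8 to 141 and 203 (1.44 ± 0.20, adjusted p = 2e-06). In both genes replicate 2 was the higher in the inputs and in the labelled captures alike. Cell cycle regulators numbered 17 higher and 4 lower of 38, of which 8 and 1 were kept with each library left out, among them the kinase inhibitor CDKN1B, which stood at 27.0 and 23.6 CPM in the inputs and 68.8 and 71.6 in the labelled captures (1.47 ± 0.17, adjusted p = 8.18e-08), and the atypical cyclin CCNG2 (1.3 ± 0.29). CCNH, the cyclin of the CDK-activating kinase, fell by 0.93 ± 0.17. The shares of this list were 44.7% higher and 10.5% lower. Those of the centrosome and cilium list were 38.5% and 7.69%, and its median of 0.36 became 0.11 without the GC trend. Of 39 centrosome and cilium genes 15 were higher and 3 lower, and 9 and 2 of these were kept with each library left out.

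Small GTPase genes were higher in 29 of 52 and lower in 2, with a median of 0.51 (0.25 without the GC trend), and 18 of the 29 were kept with each library left out. RAB8B, a vesicle traffic GTPase, rose from 12.6 and 17.1 to 36.6 and 43.4 CPM (1.42 ± 0.22, adjusted p = 1.17e-05). HRAS had the largest estimate of the list (1.89 ± 0.68, adjusted p = 0.0285) but very low levels, of 1.48 and 2.30 CPM in the inputs and 6.33 and 8.10 in the labelled captures. Its no-probe captures stood at 5.40 and 5.30 CPM, it was not called against them (adjusted p = 0.6), and the call over input was lost without replicate 2 of the labelled captures or without either input (adjusted p between 0.0617 and 0.161). Signalling genes of the Wnt, Notch, BMP and TGF-beta pathways numbered 15 higher (34.9%) and 3 lower (6.98%) of 43. The helix-loop-helix inhibitors ID4 and ID2, targets of BMP, rose by 1.41 ± 0.18 and 1.33 ± 0.18, and ID2 went from 56.5 and 50.9 CPM to 147 and 123.

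Chaperone mRNAs, which arsenite is known to induce, were higher in 12 of 24 (50%, against 20.4% of all genes) and lower in 2, with a median of 0.57. The median over single replicate pairs ran from 0.087 to 1.179, and 7 of the 12 rises were kept with each library left out. DNAJC3, an ER co-chaperone, rose by 1.29 ± 0.19 and HSPA4 by 1.12 ± 0.22, while the small heat shock gene HSPB1 fell from 50.6 and 39.1 to 21.2 and 18.3 CPM (-1.17 ± 0.23, adjusted p = 0.000164). Of 46 genes of the ER translocon and folding machinery 19 were higher (41.3%) and 7 lower (15.2%). With each library left out 13 and 3 of these calls were kept. SEL1L, of ER-associated degradation, rose by 1.00 ± 0.20, and the subunits OST4 of the oligosaccharyltransferase and SSR4 of the translocon fell by 1.89 ± 0.30 and 1.57 ± 0.19. Aminoacyl-tRNA synthetase genes numbered 7 higher (30.4%) and 0 lower of 23 with a median of 0.18. The joint glutamyl-prolyl enzyme EPRS rose from 326 and 311 to 799 and 772 CPM (1.3 ± 0.18, adjusted p = 2.24e-06). Proteasome genes numbered 8 higher (26.7%) and 2 lower (6.67%) of 30. Mitochondrial ribosomal protein genes numbered 13 higher (17.6%) and 10 lower (13.5%) of 74, with 2 and 4 of these calls kept with each library left out. Genes of the m6A mark numbered 6 higher and 2 lower of 15, with the writer subunit VIRMA rising by 1.22 ± 0.21 and the catalytic subunit METTL3 falling by 0.80 ± 0.19, the latter not without replicate 1 of the labelled captures (adjusted p = 0.0578).

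Oxidative stress genes went different ways. In the list of NRF2 targets 3 were higher (13.6%) and 4 lower (18.2%) of 22. The glutathione synthesis enzyme GCLC rose by 1.01 ± 0.18 and the thioredoxin reductase TXNRD1 by 0.94 ± 0.18, while the ferritin chains FTH1 and FTL fell by 1.36 ± 0.22 and 2.07 ± 0.22. Immediate early genes numbered 5 higher (15.6%) and 9 lower (28.1%) of 32, with a median of -0.44 that became 0.10 by total counts. EGR3, a zinc finger factor, fell from 15.2 and 7.55 to 1.81 and 1.83 CPM (-2.61 ± 0.51, adjusted p = 0.000191). MYC rose from 135 and 100 to 270 and 180 CPM (0.94 ± 0.19, adjusted p = 0.000252), but its no-probe captures stood at 200 and 130 CPM and it was not called against them (adjusted p = 0.051). Chromatin regulators were mixed, with 16 higher (29.1%) and 13 lower (23.6%) of 55. SUZ12, of the Polycomb complex PRC2, rose by 1.32 ± 0.16 and the H3K4 methyltransferase KMT2D fell by 1.60 ± 0.18.

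Other lists moved less. Translation initiation factors numbered 5 higher (17.2%) and 4 lower (13.8%) of 29. Elongation factors and other mRNAs with a terminal oligopyrimidine tract numbered 4 and 4 of 17 (23.5% each). Glycolytic enzymes numbered 3 and 3 of 17 (17.6% each), and AU-rich element binding proteins 3 (23.1%) and 2 (15.4%) of 13. Factors of nonsense-mediated decay numbered 3 higher and 1 lower of 15, and splicing factors of the SR and hnRNP families 7 and 3 of 25. ATF4 pathway genes were higher in 7 of 27 (25.9%) and lower in 4 (14.8%), the tRNA exporter XPOT among the rises (1.1 ± 0.16, adjusted p = 5.46e-06). Long cytoskeletal mRNAs, with a median transcript length of 10990 bases, numbered 2 higher (7.69%) and 2 lower (7.69%) of 26. Zinc finger genes of chromosome 19 had a median of 0.33, or 0.07 without the GC trend, with 29 higher (15.9%) and 10 lower (5.49%) of 182.

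Among lists of nuclear mRNAs, ribosomal proteins had the largest share of falls. Of 74 tested, 53 (71.6%) were lower and 1 higher, with a median of -0.80, or -0.27 by total counts, -0.57 with the length trend removed and -0.74 with the GC trend removed. Their summed level was 40771 and 41321 CPM in the inputs, 29408 and 46756 in the no-probe captures and 25064 and 29799 in the labelled captures, so that replicate 1 of the no-probe captures lay near the labelled captures. RPS29 fell from 215 and 194 to 59.9 and 57.2 CPM (-1.80 ± 0.17, adjusted p = 3.28e-09). RPL5 was the member that was higher (0.49 ± 0.19, adjusted p = 0.0395), and not without replicate 2 of the labelled captures (adjusted p = 0.252) or replicate 1 of the inputs (adjusted p = 0.241). With each library left out in turn, 37 of the 53 falls were called every time. RPL22L1, a paralog of RPL22 outside this list, rose from 51.0 and 45.0 to 145 and 163 CPM (1.68 ± 0.16, adjusted p = 4.03e-09).

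Nuclear genes of oxidative phosphorylation numbered 33 lower (43.4%) and 3 higher of 76, with a median of -0.45 that became 0.10 by total counts and -0.14 without the length trend. COX6B1 fell from 78.4 and 74.2 to 24.1 and 19.3 CPM (-1.80 ± 0.24, adjusted p = 1.49e-06), and 18 of the 33 falls were kept with each library left out. Replication-dependent histone genes, whose mRNAs lack a poly(A) tail, had a median of -0.53 by TMM, 0.01 by total counts and 0.29 without the length trend, with 17 lower and 2 higher of 48. Of those 17 falls 3 were kept with each library left out. These genes have near-identical copies that can share reads.

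**Figure D4:**
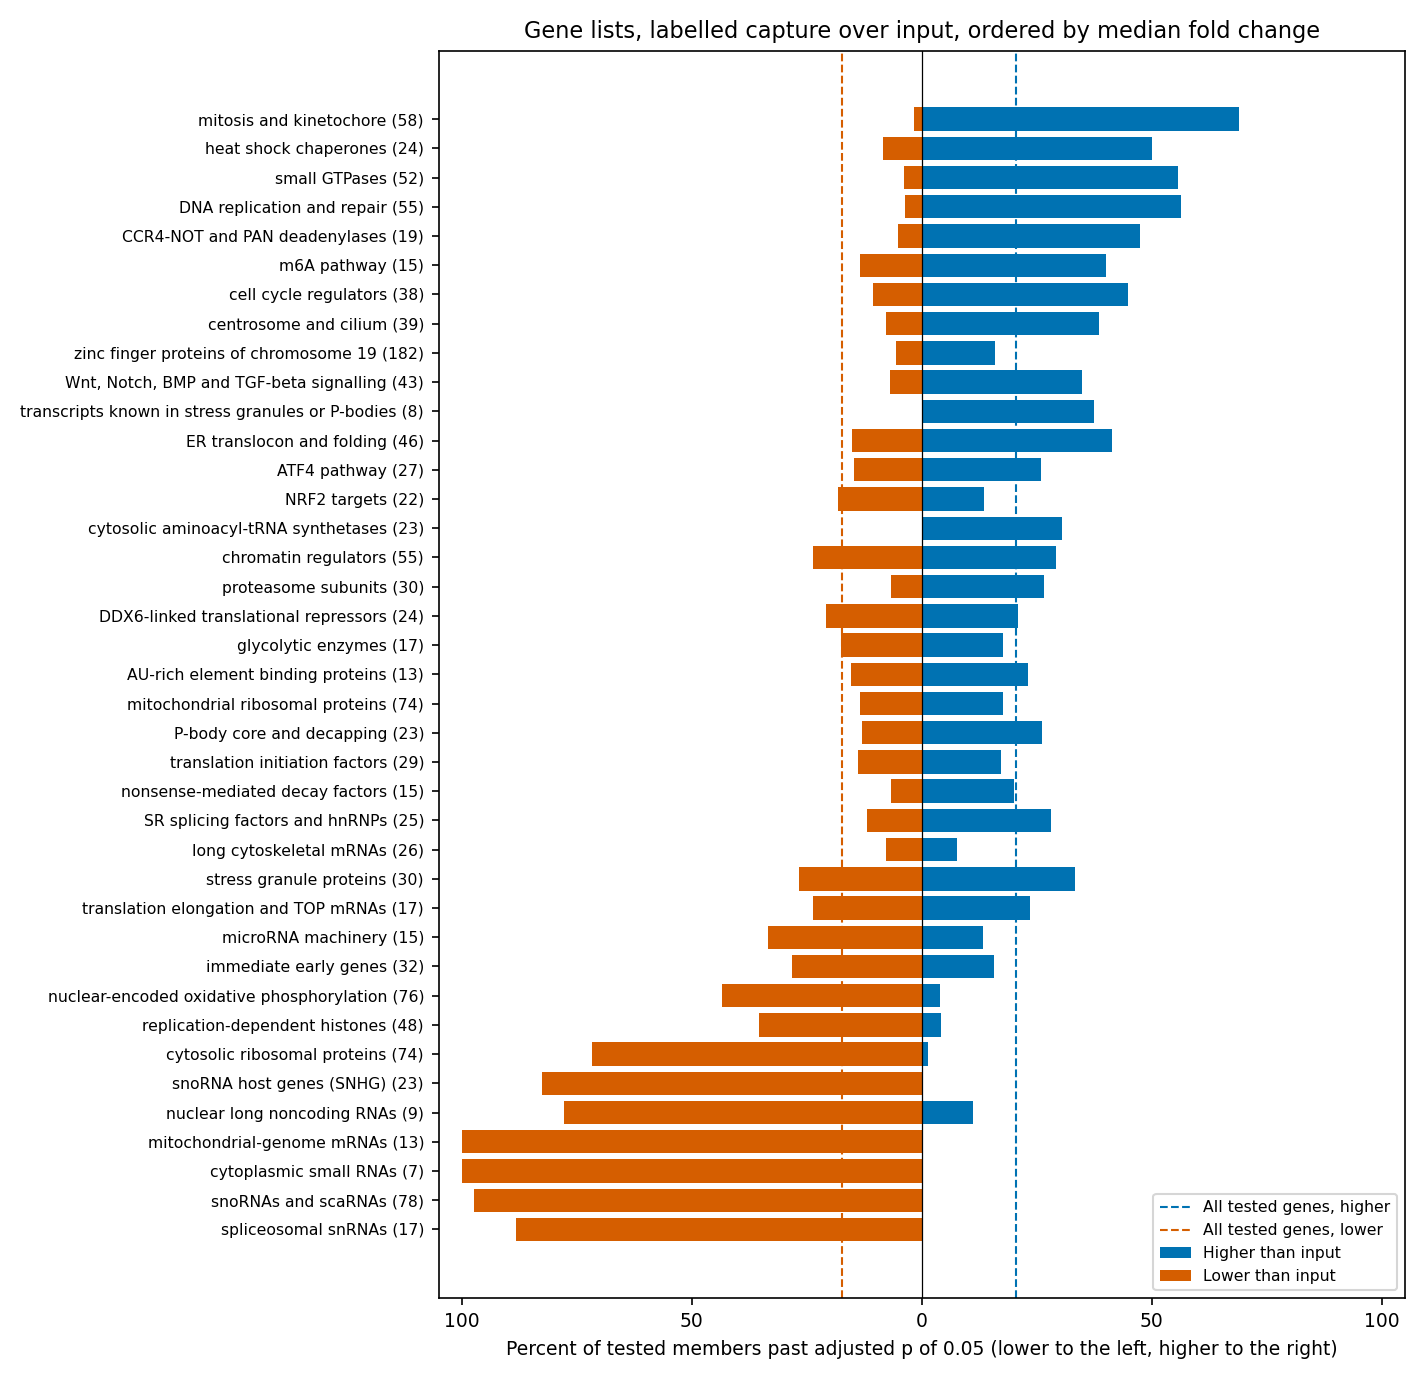
Bars give, for each gene list, the percent of tested members (number in brackets) higher (right, blue) or lower (left, orange) in labelled capture over input, with dashed lines at 20.4% and 17.3% for all 14360 genes. Mitosis and kinetochore genes lead with 69% higher, and mitochondrial mRNAs and cytoplasmic small RNAs are 100% lower, by TMM, while under total counts the medians of the oxidative phosphorylation, histone, immediate early and microRNA lists, and of the lists just below 0, are above 0.

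Of the 23 transcripts of the mitochondrial genome tested 21 were lower and 0 higher. All 13 mitochondrial mRNAs fell, with a median of -3.44 against -2.90 by total counts, and all 13 were called with any of the 4 libraries left out. The 16S rRNA MT-RNR2 stood at 189387 and 197556 CPM in the inputs, 101985 and 213850 in the no-probe captures and 12686 and 11613 in the labelled captures (-3.99 ± 0.31, adjusted p = 1.89e-11). The no-probe captures lay on either side of the inputs and far above the labelled captures.

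Small nuclear and nucleolar RNAs were lower too. Of 78 small nucleolar and Cajal body RNAs tested, out of 992 in the table, 76 were lower, with a median of -4.32, or -4.11 with the 6 that had no count in either labelled capture set to the bound that 3 counts over both libraries allow. Their summed level was 6027 and 4684 CPM in the inputs, 3221 and 9304 in the no-probe captures and 189 and 154 in the labelled captures. The spliceosomal RNA RNU4-1 stood at 1597 and 934 CPM in the inputs and 13.4 and 8.36 in the labelled captures, while 15 of 17 such genes were lower with a median of -4.35. These RNAs are short, and without the trend of the change with length the medians of the 2 lists were -2.19 and -2.10, against -2.81 for the mitochondrial mRNAs. All 7 cytoplasmic small RNAs tested, among them Y RNAs and vault RNAs, were lower as well. Host genes of small nucleolar RNAs were lower in 19 of 23 and higher in 0, with a median of -1.43.

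Several long noncoding RNAs fell despite their length. MALAT1, of nuclear speckles, stood at 1911 and 1157 CPM in the inputs, 1636 and 1212 in the no-probe captures and 421 and 346 in the labelled captures (-2.0 ± 0.23, adjusted p = 8.18e-08). NEAT1, the scaffold of paraspeckles, went from 115 and 58.1 to 25.2 and 15.7 CPM (-2.05 ± 0.28, adjusted p = 1.8e-06), and the imprinted antisense RNA KCNQ1OT1 from 206 and 147 to 30.4 and 20.6 (-2.77 ± 0.19, adjusted p = 3.1e-12). HELLPAR fell by 2.34 ± 0.29. MALAT1, KCNQ1OT1 and HELLPAR each overlap annotated genes on the other strand, whose reads cannot be told apart here. AC084082.1 stood at 22.5 and 21.7 CPM in the inputs and 2.95 and 24.9 in the no-probe captures, with 2 counts in one labelled capture and 0 in the other, so no fold is given. In the list named nuclear long noncoding RNAs, where the place of each RNA in the cell was not measured, 7 of 9 tested were lower. The one that was higher was OIP5-AS1 (0.94 ± 0.23, adjusted p = 0.00168). It was not called against the no-probe captures (adjusted p = 0.073), of which 1 stood at 123 CPM.

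The difference between enrichment under arsenite and enrichment without it passed the threshold in 3 of 14360 genes, 1 higher (0.00696%) and 2 lower (0.0139%), and in 604 at an unadjusted p under 0.05. RPL22L1 (chr3:170864875-170870483, minus strand) stood at 45.2 and 48.6 CPM in the unstressed inputs and 38.1 and 40.7 in the unstressed captures, against 51.0 and 45.0 and 145 and 163 CPM under arsenite. Its inputs overlapped between the treatments and its captures did not, and the difference of the log2 enrichments was 1.93 ± 0.23 (adjusted p = 2.88e-05, and at most 0.00148 with any 1 of 8 libraries left out).

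The other 2 genes were less enriched under arsenite than without it. XBP1, the transcription factor of the unfolded protein response whose mRNA is spliced at the ER, stood at 77.4 and 70.5 CPM in the unstressed inputs and 199 and 221 in the unstressed captures, but at 101 and 94.2 and at 96.4 and 98.2 CPM under arsenite (-1.51 ± 0.28, adjusted p = 0.0366). PNRC1, a nuclear receptor coactivator, stood at 24.6 and 24.8 CPM in the unstressed inputs and 54.7 and 55.6 in the captures, and at 51.4 and 38.1 and at 42.7 and 31.9 CPM under arsenite (-1.41 ± 0.25, adjusted p = 0.022). In PNRC1 the inputs under arsenite were above the unstressed inputs, so the levels of input and capture both moved. The XBP1 call was lost with any of the 8 libraries left out (adjusted p between 0.0602 and 0.564) and that of PNRC1 with 6 of the 8 (up to 0.349). By total counts both calls were lost as well (adjusted p = 0.131 and 0.211) and the RPL22L1 call was kept.

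**Figure D5:**
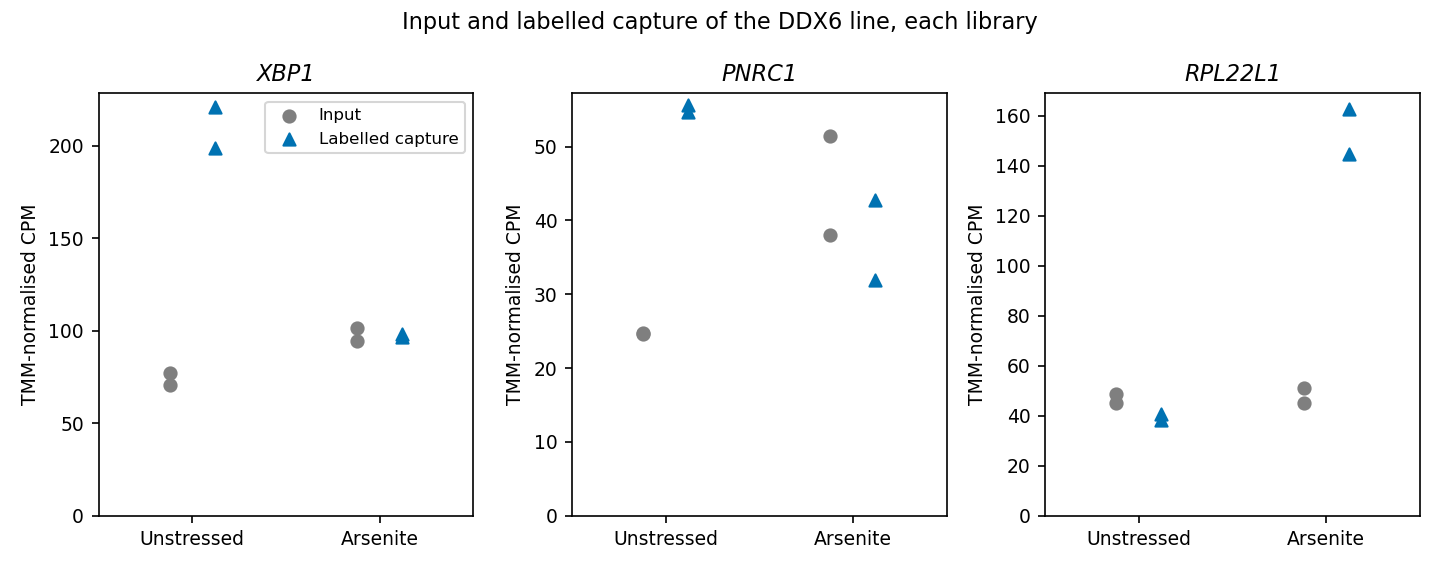
Points give the TMM-normalised CPM of each input (grey circles) and labelled capture (blue triangles) of the DDX6 line, unstressed and under arsenite, for the 3 genes whose enrichment differed between them, each panel with its own linear axis from 0. RPL22L1 captures stand at 145 and 163 CPM under arsenite and at 38.1 and 40.7 CPM unstressed.

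Against the other baits, each in its own line so that bait and line cannot be told apart, the enrichment near DDX6 differed from that near TIA1 in 121 genes that were higher (0.843%) and 217 that were lower (1.51%). These 338 calls became 398 without replicate 1 of the DDX6 labelled captures, 156 without replicate 2 of them, 114 without replicate 1 of the DDX6 inputs, and 96 to 144 without any 1 of the 4 TIA1 libraries. MALAT1 is an example of the latter: in the TIA1 line it stood at 2012 and 1541 CPM in the inputs and 4021 and 2756 in the labelled captures, and the difference of the enrichments was -2.93 ± 0.31 (adjusted p = 6.42e-07). Of the 17 spliceosomal RNAs tested 9 were lower near DDX6 than near TIA1, and of the 9 tested in the list of nuclear long noncoding RNAs 4. With a replicate block 998 genes differed from the TIA1 enrichment and 228 from that near G3BP2, though the labels do not say that a number marks a shared culture. Without the block 7 genes were higher against G3BP2 (0.0487%) and 0 lower (0%), with 1580 at an unadjusted p under 0.05, all by edgeR. DESeq2 gave 81 genes in either direction. With 1 library left out the count ran from 2, without replicate 2 of the G3BP2 inputs or of its labelled captures, to 15, without replicate 1 of the DDX6 labelled captures. It was 3 without replicate 1 of either input group and 12 without replicate 2 of the DDX6 inputs. RPL22L1 had 66.6 and 71.5 CPM in the G3BP2 inputs and 42.7 and 32.7 in the captures, and its enrichment was higher near DDX6 than near G3BP2 by 2.55 ± 0.23 (adjusted p = 3.57e-08) and than near TIA1 by 2.39 ± 0.24 (adjusted p = 2.07e-07).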

How the data were processed

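RNA was sequenced from 6 DDX6 arsenite libraries, 2 each of input, labelled capture and no-probe capture. The deposited table holds whole-number counts per gene that the authors made, with Ensembl release 87 gene IDs per the file header. Per the submitters' processing notes the tools were cutadapt 1.18, FastQC 0.11.8, HISAT2 2.1.0, SAMtools and HTSeq 0.7.2, with the build GRCh38. Strandedness of the counting and its treatment of multi-mapped reads are not given in the sources used here, so near-identical and overlapping genes are uncertain. Of 57992 genes, 57388 matched GENCODE release 29, which gave symbols, types, lengths and GC content of the longest annotated transcript.

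The counts were fitted in edgeR 4.0.16 (R 4.3.3) with 1 coefficient for each of the 12 groups of all 24 libraries, which share 1 estimate of the spread, after filterByExpr (14360 genes left) and TMM scaling. Contrasts used the quasi-likelihood F-test, two-sided, with Benjamini-Hochberg adjustment and a threshold of 0.05. CPM values are counts scaled by effective (TMM) library size, and fold changes are log2 estimates ± SE. The common biological coefficient of variation was 12.9% with 12 residual degrees of freedom. No molecular identifiers are stated, so amplification can add to the counting error. No 2 replicates were alike within sampling noise. The procedure was tested on simulated counts in which few genes changed, evenly in both directions. That setting differs from these data, so it cannot decide between the ways of scaling.

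Named genes were, by rule, the 12 highest and 12 lowest protein-coding and 4 highest and 4 lowest long noncoding genes with both labelled captures beyond both inputs, calls against input and no-probe capture in 1 direction and at least 20 CPM; up to 2 highest and 2 lowest called genes of each list; the bait genes, NORAD, MALAT1, NEAT1, RPL22L1, DCK and ID2; and the genes called against the unstressed enrichment. One long noncoding RNA that the rule picks is not reported here. The members and gene lists were chosen with earlier results of these data known, and list counts are read against the share over all genes, with no test of a list. Alternatives were RLE and total-count scaling, other filters, DESeq2 1.42.0, the 6 libraries alone, a replicate block, each replicate left out, and list medians with the loess trend on length or GC content removed.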

Additional observations from a re-analysis of the deposited data

Results flagged for a closer look

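The effect of capture differed between arsenite and no arsenite in RPL22L1 (1.93 on the log2 scale), XBP1 (-1.51) and PNRC1 (-1.41), by the test of the difference of enrichments in edgeR with adjustment over all genes. RPL22L1 had both arsenite captures above both unstressed captures, and XBP1 and PNRC1 had both below. The RPL22L1 call was kept with any of 8 libraries left out, that of XBP1 was lost with each of the 8 and that of PNRC1 with 6.

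Between baits under arsenite the enrichment differed in 338 genes for DDX6 against TIA1 and in 7 for DDX6 against G3BP2. RPL22L1 was higher near DDX6 in both, by 2.39 against TIA1 and 2.55 against G3BP2, and both calls were kept with any of 8 libraries left out. ID2 was higher than near G3BP2 by 1.47, a call lost with 2 of 8 libraries left out (adjusted p up to 0.121).

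The genes lower near DDX6 than near TIA1 included 4 long noncoding RNAs, HELLPAR at -2.98, MALAT1 at -2.93, NEAT1 at -2.75 and KCNQ1OT1 at -1.80, each kept with any of 8 libraries left out. Apart from MALAT1 and NEAT1, the genes of this paragraph were named for their large fall over input near DDX6. That fall enters the difference from TIA1, so the naming rule favours a negative value. Also lower than near TIA1 were U2AF1 at -2.44, TTLL3 at -2.36, FOSB at -2.02, EIF4A1 at -1.72 and MAPK8IP3 at -1.06. Of these, EIF4A1 was kept throughout, FOSB and TTLL3 were lost without replicate 1 of the DDX6 arsenite inputs (adjusted p = 0.0577 and 0.0655), U2AF1 was lost with 3 of 8 libraries left out and MAPK8IP3 with 6.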

How the results depend on the processing

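No gene of the capture over input comparison was called in the opposite direction under any alternative run. By total counts 5891 genes were higher and 809 lower over input, 5548 and 1104 over no-probe capture, and 1 and 2 genes differed from the unstressed and G3BP2 enrichments. The 6 libraries alone gave 1342 and 1358 over input and 1678 and 1765 over no-probe capture. Asking also for a log2 change past 1, these were 839 and 1481, and 1180 and 1791. Without a filter on low counts 13 genes were higher and 8 lower in no-probe capture over input, and 17 and 55 differed from the unstressed and G3BP2 enrichments. For G3BP2 the stricter filter gave 14 and DESeq2 81.

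Same-numbered DDX6 arsenite libraries deviated together (r of 0.389 between capture and input, 0.26 between capture and no-probe capture, 0.199 between input and no-probe capture, across genes), but the labels do not say that a number marks a shared culture. With the replicate block 3377 genes were higher and 2851 lower over input, 3 and 6 in no-probe capture over input, and 6, 998 and 228 differed from the unstressed, TIA1 and G3BP2 enrichments.

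With 1 library left out, 1937 to 2805 genes were higher and 1407 to 1979 lower over input, 2762 to 3069 and 1759 to 2533 over no-probe capture, and 0 to 24 and 0 to 114 in no-probe capture over input. The unstressed, TIA1 and G3BP2 comparisons gave 1 to 3, 96 to 398 and 2 to 15 genes. Where an arm keeps 1 library, it is assumed to vary like the other groups.

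Some values changed sign. By total counts XBP1 stood at 0.53, PNRC1 at 0.29, XRCC2 at 0.10, RBM15 at 0.040, HNRNPA2B1 at 0.019 and PSMC5 at 0.018, and the medians at 0.17 for microRNA machinery, 0.10 for immediate early genes, 0.24 for HEK293T markers, 0.098 for oxidative phosphorylation and 0.012 for histones. XBP1 (-0.0055) was 0.095 without a filter and -0.016 to 0.065 with a library left out, and NOTCH3 ran from -1.64 to 0.059, the latter without replicate 1 of the inputs. Without the GC trend the repressors stood at -0.19, chromatin regulators at -0.031 and HEK293T markers at 0.052, and histones at 0.29 without the length trend. The cause was not tested.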
